A study of Homo sapiens with 6 samples.

Results

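The genes described here are 9 transcription factors of the muscle lineage, read by their symbols from a table of raw counts for 17081 genes. They are the myogenic regulators MYOD1, MYF5, MYOG and MYF6, the upstream factors PAX3 and SIX4, and MEF2A, MEF2C and MEF2D of the MEF2 family. All 9 were present in the table. RNA came from 6 samples of tumour formed by DMS114, a long-established line of human small cell lung cancer, in a model in which tumour invades along the sciatic nerve. The labels name 3 samples as proximal and 3 as distal tumour tissue. No treatment, allele or control tissue is named, and all samples share the cell line and the model. The host, its age and the number of animals are not stated there, so each p-value reflects only how far these samples scatter, and that scatter may be technical.

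Skeletal muscle forms when upstream factors such as PAX3 and SIX4 switch on the myogenic regulators, a family of basic helix-loop-helix proteins that pair with E proteins and bind the E-box. MYF5 and MYOD1 commit cells to the lineage, MYOG drives their differentiation, and MYF6 (also called MRF4) is the member that stays abundant in mature fibres. MEF2 proteins bind an AT-rich site beside the E-box and act with the myogenic regulators on sarcomere genes. MEF2A and MEF2D are made in most tissues, and MEF2C is prominent in muscle, heart, endothelium, neurons and blood cells. PAX3 also acts in neural crest.

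MYOG and MYF6 are shown by the 150 bases before their RefSeq start (GRCh38.p14), because they were the myogenic regulators with the most reads and nearly all of those reads were in a single library. Capitals mark matches to 3 patterns searched on both strands. These were the E-box (CANNTG), the MEF3 motif (TCAGGTT), which SIX4 and its relatives bind, and the MEF2 motif (YTAWWWWTAR). In the patterns N is any base, Y is C or T, W is A or T, and R is A or G. The MYOG window is chr1:203086013-203086162 on the minus strand and the MYF6 window chr12:80707484-80707633 on the plus strand.
MYOG: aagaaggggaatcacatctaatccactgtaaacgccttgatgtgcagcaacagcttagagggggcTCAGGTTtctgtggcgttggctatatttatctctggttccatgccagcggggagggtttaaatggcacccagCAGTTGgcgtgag
MYF6: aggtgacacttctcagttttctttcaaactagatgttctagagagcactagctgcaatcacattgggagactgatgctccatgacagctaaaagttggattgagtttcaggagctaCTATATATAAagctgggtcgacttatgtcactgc

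The MYOG window holds a MEF3 match that begins 85 bases before the start and an E-box that begins 13 bases before it. Its stretch ctatatttat misses the MEF2 pattern by the last base only, so it was not marked or counted. The MYF6 window holds a MEF2 match that begins 34 bases before the start, and no E-box. Over the 250 bases before the start, an E-box was found in 61.8% of 35114 RefSeq promoters, the MEF2 motif in 2.8% and the MEF3 motif in 2.79%. Of the 8 factors with a promoter in the RefSeq table (MYOD1 was missing), 4 held an E-box (MYOG, MYF5, MEF2A and MEF2D), 1 a MEF2 motif (MYF6) and 1 a MEF3 motif (MYOG). Among 23 adult skeletal muscle genes with a promoter, 18 held an E-box, 6 a MEF2 motif and 1 a MEF3 motif. A match describes the letters only and is not evidence of binding, and the lack of a match is not evidence that no site is there.

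The libraries held 16171106 to 26116191 counts. Levels are given in CPM, counts scaled to library size after TMM normalization, and each interval of a single library is an exact 95% Poisson interval for counting error alone. Muscle reads set some libraries apart. Summed over 37 adult skeletal muscle genes the level was 3446 CPM in distal 3 and 633.3 CPM in proximal 3, against 172 to 221 CPM in the other 4. All 37 genes were highest in distal 3, where 26.9% of all tested genes were. Of the 37 genes, 24 had enough counts to be tested. Some of the others rested on few reads, such as COX6A2 with 6 counts over all libraries. The label of the tumour cells was checked on identity genes of small cell lung cancer. YAP1, which marks the subtype with low neuroendocrine character, had 167 to 187 CPM, while POU2F3, the regulator of the tuft cell-like subtype, had at most 0.247 CPM in any library. NEUROD1, which marks a further subtype, ranged from 0.0462 to 6.47 CPM. It was highest in distal 3 and did not have enough counts to be tested. Markers of other cell types were low for leukocytes (a summed 0.416 to 2.02 CPM over 7 genes) and endothelium (0.155 to 2.38 CPM over 5 genes). Reads were aligned to the human genome, and the handling of host reads is not stated. A low level thus does not show that host cells of these types were few. Schwann cell markers summed to 63.4 to 158 CPM, and the 6 fibroblast markers to 4530 to 6122 CPM. The fibroblast markers differed widely in level, from COL3A1 (a fibrillar collagen) at 3725 to 5104 CPM to COL1A1 at 7.70 to 62.2 CPM and PDGFRA at 0.244 to 1.28 CPM.

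By their levels the factors were of 3 kinds. The myogenic regulators MYOD1 and MYF5 were at or near 0 throughout. PAX3, SIX4, MEF2A and MEF2D were read at similar levels in all 6 libraries. MYOG, MYF6 and MEF2C were highest in distal 3, the library with the most muscle reads. SIX4 and MEF2A were also highest there, by small amounts, and MYOD1 and MYF5 had 2 counts there, as many as in any other library. In bulk tissue, more cells of a type and more RNA per cell cannot be told apart.

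**Figure D1:**
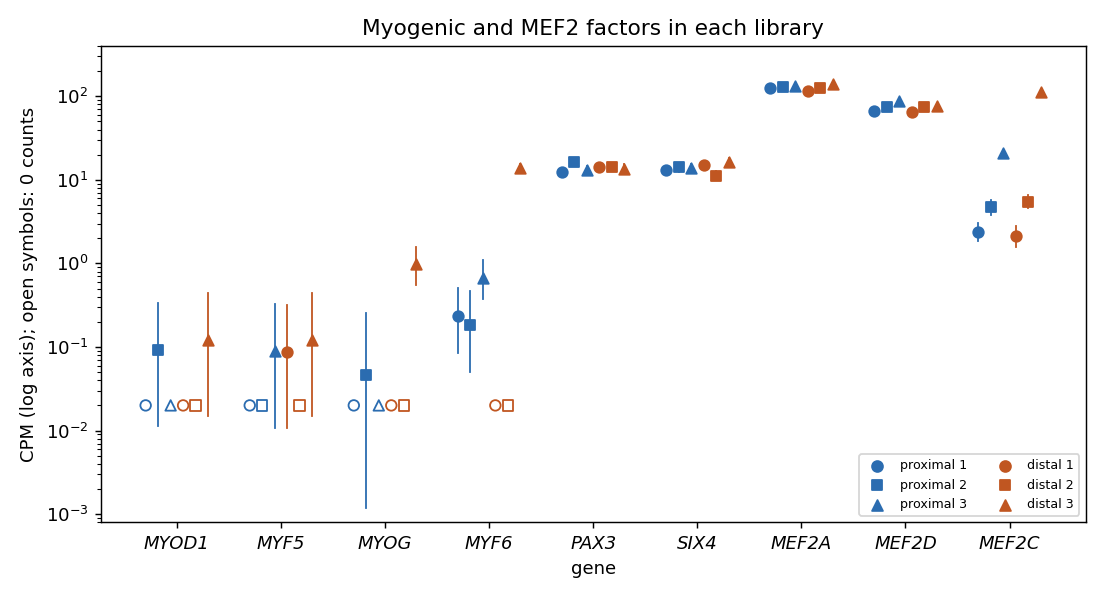
CPM of the 9 factors (log axis) in each library, with exact 95% Poisson intervals. Proximal libraries are blue and distal ones orange, the symbol gives the replicate number, and open symbols drawn at a fixed height stand for 0 counts. MEF2A, MEF2D, PAX3 and SIX4 are level across libraries, while MEF2C runs from 2.11 to 112 CPM and MYF6 reaches 13.7 CPM in distal 3.

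MYOD1 (chromosome 11, 17719571 to 17722136, GRCh38) had 0, 2 and 0 counts in proximal 1, 2 and 3 and 0, 0 and 2 counts in distal 1, 2 and 3. MYF5 (chromosome 12, 80716912 to 80719671) had 0, 0 and 2 counts in the proximal and 2, 0 and 2 counts in the distal libraries. These lineage-committing factors thus gave 4 and 6 reads over all libraries together, spread over both groups. Taking 3 counts as the limit, a count of 0 allows up to 0.116 to 0.183 CPM, depending on the library. By the exact Poisson intervals, the 0 counts of these 2 genes allow up to 0.143 to 0.170 CPM. A level below that could give 0 reads at this depth.

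MYOG, the differentiation factor (chromosome 1, 203083129 to 203086012), had 0, 1 and 0 counts proximally and 0, 0 and 16 counts distally. In distal 3 that is 0.977 CPM, with an interval from 0.558 to 1.59 CPM. The interval lies above that of proximal 2 (0.00117 to 0.257 CPM), and proximal 3 had no MYOG read.

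MYF6, the myogenic regulator of mature fibres, had 6, 4 and 15 counts proximally and 0, 0 and 224 counts distally. These are 0.232, 0.185 and 0.674 CPM in proximal tumour, and 13.7 CPM in distal 3 (interval 11.9 to 15.6 CPM). Distal 3 stood above every other library. The 0 counts of distal 1 and distal 2 allow up to 0.132 and 0.124 CPM (3 counts), which lies within the intervals of proximal 1 and proximal 2 but below that of proximal 3 (0.377 to 1.11 CPM). The groups overlap. MYF6 lies on chromosome 12 (80707634 to 80709474), 7437 bases from MYF5, and the pair differed in level although they are neighbours: MYF5 had 2 counts in distal 3. None of MYOD1, MYF5, MYOG and MYF6 passed the low-count filter, so they were not tested between groups.

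PAX3 lies on chromosome 2 (222199887 to 222298998). Its proximal levels were 12.4, 16.5 and 13.0 CPM, and its distal levels 14.3, 14.4 and 13.4 CPM. The distal values lie inside the proximal range, and the means were 13.9 ± 2.22 and 14.01 ± 0.554 CPM (SD, n = 3 each). Distal minus proximal, PAX3 gave a log2 fold change of 0.01 (SE 0.15, 95% interval -0.33 to 0.35). SIX4, a homeodomain factor upstream of the myogenic regulators (chromosome 14, 60709539 to 60724351), was read at 13.0, 14.1 and 13.7 CPM in proximal 1 to 3 and at 15.1, 11.2 and 16.2 CPM in distal 1 to 3. The highest and the lowest SIX4 values were both distal, and the log2 fold change was 0.06 (SE 0.17, interval -0.31 to 0.42).

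MEF2A (chromosome 15, 99565417 to 99716488) was the most abundant of the 9 factors, at 126, 130 and 133 CPM proximally and 117, 125 and 141 CPM distally. Its means of 129 ± 3.59 and 128 ± 12.1 CPM (SD, n = 3 each) differed by less than the spread between libraries, and the log2 fold change of MEF2A was -0.02 (SE 0.09, interval -0.21 to 0.18). MEF2D (chromosome 1, 156463727 to 156500775) was read at 67.4, 75.0 and 88.0 CPM proximally and at 65.5, 73.9 and 76.1 CPM distally. The groups overlap, and the log2 fold change of MEF2D was -0.10 (SE 0.11, interval -0.35 to 0.16). For PAX3, SIX4, MEF2A and MEF2D these intervals lie within 1.5-fold in either direction.

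MEF2C (chromosome 5, 88717117 to 88904105) varied most among the tested factors. It had 62, 102 and 466 counts in the proximal and 48, 133 and 1837 counts in the distal libraries. On the scaled level these are 2.40, 4.71 and 20.9 CPM and 2.11, 5.48 and 112 CPM. Distal 3 was highest, proximal 3 next, and distal 1 and proximal 1 lowest, with Poisson intervals that overlap between distal 1 (1.56 to 2.80 CPM) and proximal 1 (1.84 to 3.08 CPM) and between proximal 2 (3.84 to 5.72 CPM) and distal 2 (4.59 to 6.49 CPM). Proximal libraries averaged 9.35 ± 10.1 CPM and distal ones 39.9 ± 62.6 CPM (SD, n = 3 per group). The highest level was 53.0 times the lowest, and 99.7% of the 13382 tested genes had a smaller ratio. Over all tested genes the median of that ratio was 1.34, and it was 1.203 for MEF2A, 1.33 for PAX3, 1.34 for MEF2D and 1.45 for SIX4.

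Between distal and proximal tumour 0 of the 5 tested factors passed the quasi-likelihood test of edgeR (Benjamini-Hochberg adjusted p), beside 0% of all 13382 tested genes. Of all genes, 178 had an unadjusted p below 0.05, and none of these factors was among them. DESeq2 called 1 gene (EDIL3, an integrin ligand) and limma-voom 0. The adjusted p of each factor was 0.9997. Groups overlapped for all 5 tested factors, where 6.28% of tested genes had groups that did not overlap. The log2 fold change of MEF2C was 2.09 (SE 1.89, 95% interval -3.06 to 7.24). Without distal 3 it was -1.29, without proximal 3 it was 3.49, and without both it was 0.11 (SE 0.52). Its size and sign thus depended on whether distal 3 and proximal 3 were kept. Both had a higher summed level of adult muscle genes than the other libraries. The part of muscle reads in this value was not tested.

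**Figure D2:**
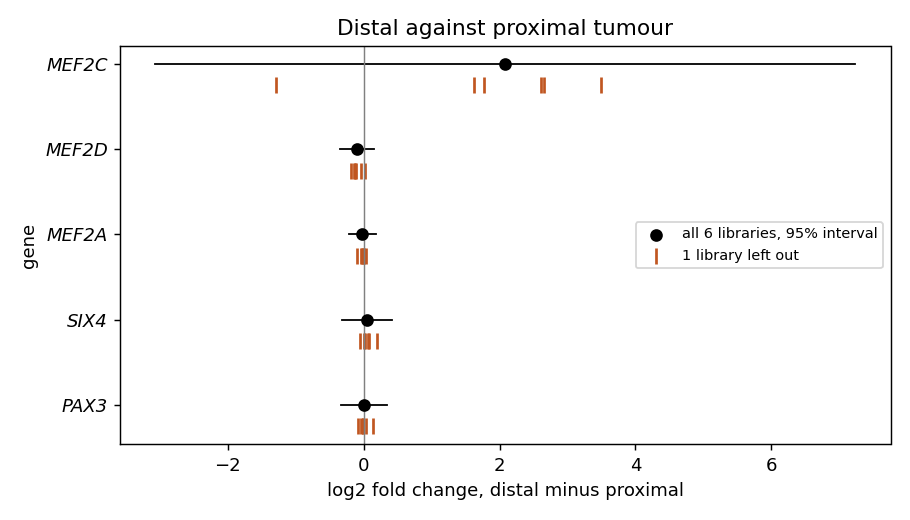
Log2 fold change, distal minus proximal, of the 5 tested factors. Black points with lines are the edgeR estimates with 95% intervals, and orange ticks are the estimates with 1 library left out in turn. PAX3, SIX4, MEF2A and MEF2D lie close to 0, while MEF2C moves from -1.29 without distal 3 to 3.49 without proximal 3.

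Within the MEF2 family the make-up of the reads differed between libraries. Of the reads of MEF2A, MEF2C and MEF2D, MEF2C took 1.23%, 2.25% and 8.66% proximally and 1.15%, 2.68% and 34.1% distally. The exact binomial 95% interval in distal 3 was 32.8% to 35.4%, and in proximal 3 it was 7.92% to 9.45%. These shares are of reads and not per length. Per kilobase of annotated exon (GENCODE 29, all exons of a gene merged), MEF2A had 16.9 to 20.3 CPM, MEF2D 10.2 to 13.8 CPM and MEF2C 0.180 to 9.54 CPM. On the same scale SIX4 had 1.68 to 2.44 CPM, PAX3 1.56 to 2.08 CPM and MYF6 at most 9.34 CPM. In distal 3 the per-length levels of MEF2C and MYF6 were close to each other, and in all 6 libraries both were below MEF2A and MEF2D. MEF2B, the remaining member of the family, had 3 to 11 counts in each library and was not tested.

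**Figure D3:**
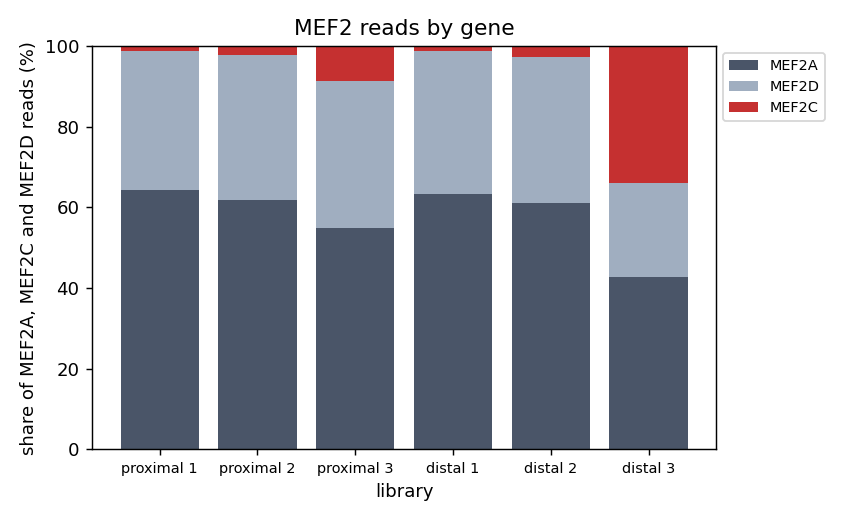
Share of the reads of MEF2A, MEF2D and MEF2C (stacked bars, adding to 100%) in each library. MEF2C takes 34.1% in distal 3 and 8.66% in proximal 3, against 1.15% to 2.68% in the other libraries.

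MEF2C, MYF6 and MYOG were set beside genes of mature fibres. ACTA1 (skeletal actin) was read at 0.890, 6.42 and 49.8 CPM proximally and at 0.661, 3.38 and 302 CPM distally. CKM, the muscle creatine kinase, had 0.155, 1.39 and 11.1 CPM and 0.0881, 0.700 and 101 CPM. TTN (titin) reached 27.8 CPM in proximal 3 and 193 CPM in distal 3, and DES (desmin) 10.2 and 84.3 CPM. In each of these genes distal 3 was highest and proximal 3 next, as for MEF2C and MYF6. PAX3, SIX4, MEF2A and MEF2D had no such gap: their level in distal 3 was 1.03, 1.18, 1.06 and 0.865 times that in proximal 3. TNNT1 (slow skeletal troponin T), at 92.6 to 114 CPM, also lacked it.

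**Figure D4:**
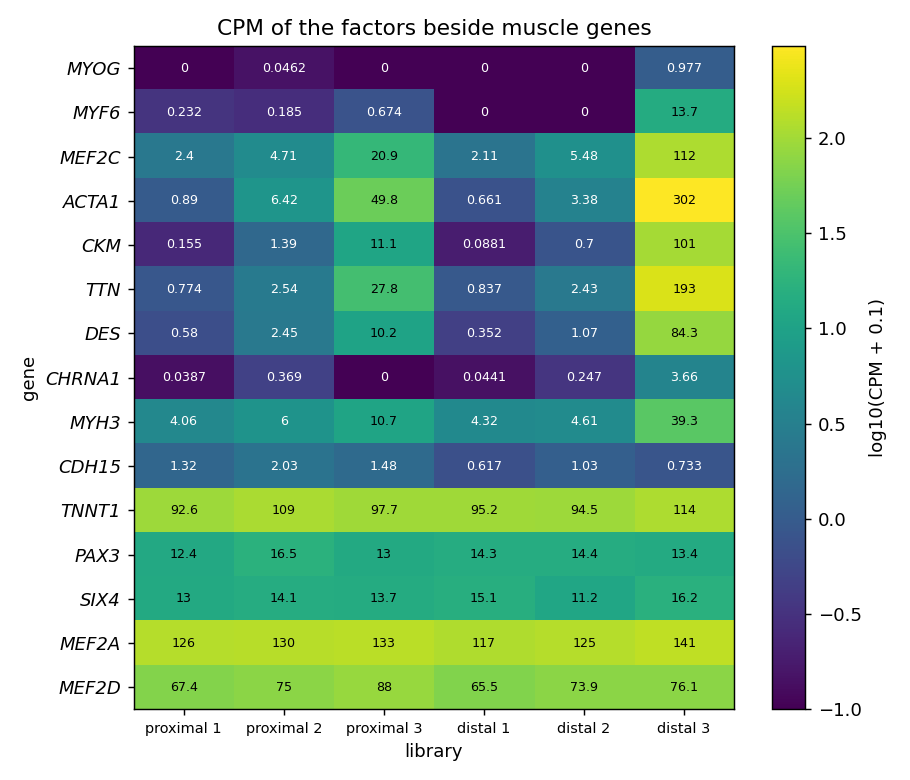
CPM of the factors and of muscle genes in each library. Cells print the CPM, and the colour is log10(CPM + 0.1). MYOG, MYF6 and MEF2C are highest in distal 3, as are ACTA1, CKM, TTN and DES, while the lower rows from TNNT1 to MEF2D differ by at most 1.45 times between libraries. MYOG reaches only 0.977 CPM in distal 3, below every value of those lower rows.

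The factors did not all keep a fixed proportion to muscle reads. Between proximal 3 and distal 3 the 32 adult muscle genes with at least 10 counts in proximal 3 had a median ratio of 6.93, from 1.16 for TNNT1 to 31.0 for MYH7, the slow myosin heavy chain. MEF2C had a ratio of 5.36 (Poisson interval 4.84 to 5.95), and MYF6 one of 20.3 (12.05 to 36.9), which only MYH7 of those genes exceeded. Over all tested genes the median ratio was 1.00. Per 1000 reads of the adult muscle genes other than TNNT1, MEF2C had 39.1 reads in proximal 3 (35.5 to 42.9) and 33.7 in distal 3 (32.1 to 35.3), and 26.7 to 48.5 in the other 4 libraries. The values of those 4 libraries depend on which muscle genes are summed. TNNT1 was left out after its even level was seen. With it, MEF2C had 33.0 and 32.6 reads per 1000 in proximal 3 and distal 3, and 12.1 to 26.4 elsewhere. TNNT1, RYR1, ENO3 and NEB held 75.8% to 88.4% of the adult muscle reads of the other 4 libraries, 33.2% of those of proximal 3 and 14.7% of those of distal 3. Without these 4 genes, a choice made after seeing the data, MEF2C had 88.1 to 126 reads per 1000 in the other 4 libraries, 49.5 in proximal 3 (45.0 to 54.3) and 38.2 in distal 3 (36.4 to 40.0). The MEF2C intervals of proximal 3 and distal 3 did not overlap without TNNT1 or without the 4 genes, and distal 3 was the lower. With TNNT1 the MEF2C values of these libraries were close to each other. MYF6 had 1.26 reads per 1000 in proximal 3 (0.704 to 2.08) and 4.10 in distal 3 (3.58 to 4.68), without TNNT1, so its intervals do not overlap between these libraries, nor do they without the 4 genes (1.59 and 4.65). MYOG had 0.293 reads per 1000 in distal 3 (0.168 to 0.476), and its 0 reads in proximal 3 allow up to 0.309 (upper end of the 95% interval), so a difference was not detectable. These ratios compare single libraries, not the conditions.

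**Figure D5:**
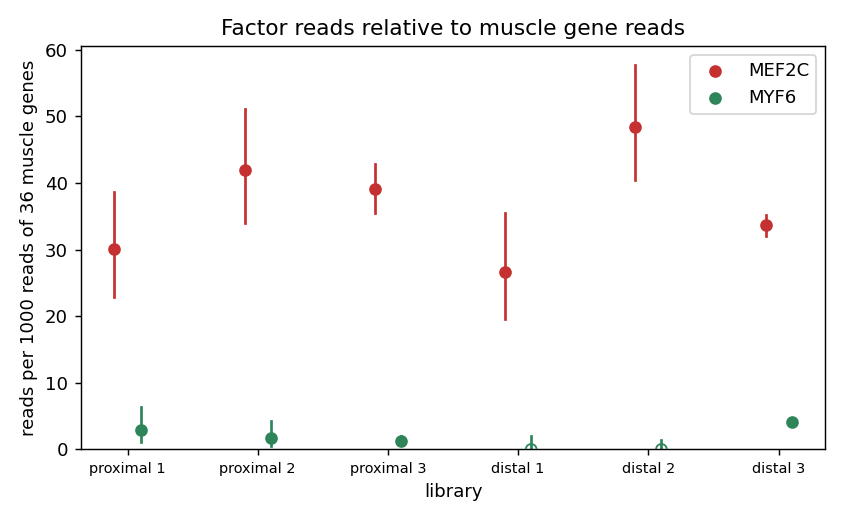
Reads of MEF2C (red) and MYF6 (green) per 1000 reads of the 36 adult muscle genes other than TNNT1 in each library, with exact 95% intervals of the ratio, and open symbols for 0 counts. MEF2C lies between 26.7 and 48.5 in all libraries, a range that holds for these 36 genes only. The MEF2C intervals of proximal 3 and distal 3 do not overlap, with distal 3 lower. MYF6 is at 1.26 in proximal 3 and 4.10 in distal 3.

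Genes of developing muscle and of muscle precursors were read as well. Of 16 such genes, 12 were highest in distal 3, where 26.9% of all tested genes were. Only 6 of the 16 were tested. Some of the 12 rested on few reads, such as MUSK (3 counts in distal 3) and CHRNG (2 counts). CHRNA1, the muscle acetylcholine receptor subunit, had 1, 8 and 0 counts in the proximal and 1, 6 and 60 counts in the distal libraries. MYH3 (embryonic myosin heavy chain) had 4.06, 6.00 and 10.7 CPM and 4.32, 4.61 and 39.3 CPM. CDH15, the cadherin of muscle precursor cells, did not share this pattern, at 1.32, 2.03 and 1.48 CPM proximally and 0.617, 1.03 and 0.733 CPM distally. Of the 6 tested genes of this list 0 passed in either direction, 5 had higher and 1 a lower value in distal tumour, and their median log2 fold change was 0.69. All 24 tested adult muscle genes had higher values and 0 passed, with a median of 2.43, beside 0.00 over all genes tested. Without distal 3 the median was -2.45 for the adult and -0.79 for the developing list, and without both proximal 3 and distal 3 it was -0.18 and -0.17, so the direction of both lists rested on distal 3. TNNC1 (slow troponin C), at 1.33, and RYR1 (the calcium release channel), at 0.51, had the lowest p among them. ACTC1 (cardiac actin) had 2.69 (SE 2.35) and CDH15 -1.01 (SE 0.39) in the developing list, the latter from means of 1.61 and 0.793 CPM.

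No relative or partner of the factors passed the test between groups. EYA1, a coactivator of SIX4 and its relatives, was abundant at 354 to 472 CPM. Of 11 tested relatives and partners of PAX3 and SIX4 0 passed in either direction, 4 had higher and 7 lower values, and the median log2 fold change was -0.03 (-0.23 without distal 3, where all 11 had lower values and 0 passed, but 0.037 without distal 1 and 0.0036 without distal 2). SIX5 (-0.29, SE 0.13) and EYA1 (-0.19, SE 0.10) had the lowest p. Of 16 E proteins and helix-loop-helix inhibitors 0 passed, 9 had higher and 7 lower values, and the median was 0.08 (-0.16 without distal 3, -0.05 without proximal 1 and -0.02 without proximal 2). TCF12, an E protein that pairs with the myogenic regulators, was at 631, 643 and 566 CPM proximally and 530.0, 559 and 486 CPM distally. Its log2 fold change of -0.22 (SE 0.09) had an adjusted p of 0.9997 by edgeR. Groups did not overlap for 2 of these 16 genes, TCF12 and TWIST1 (0.73, SE 0.48), nor for TNNC1 and CDH15 of the muscle lists, where 6.28% of all tested genes had such groups. BHLHE40 (-0.25, SE 0.14) had the next lowest p. Of 18 tested regulators of MEF2, such as class II histone deacetylases that bind and repress it, 0 passed, 7 had higher and 11 lower values, and the median was -0.04 (-0.11 without distal 3, and at most 0.01 with any other library left out). CABIN1, a MEF2 corepressor, had -0.24 (SE 0.12), and EP300, a histone acetyltransferase that coactivates MEF2, had -0.24 (SE 0.12).

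MEF2C is also made by endothelium and blood cells, so their markers were set beside it. KDR, a receptor for vascular endothelial growth factor, had 0.116 to 0.794 CPM and was highest in distal 3. Of the 5 endothelial markers 4 were highest in distal 3, where 26.9% of all tested genes were, but 0 of the 5 had enough counts to be tested. Their summed level was 0.155 to 0.853 CPM in proximal and 0.453 to 2.38 CPM in distal tumour, and PECAM1 had 0 counts in 5 libraries. Summed leukocyte markers were highest in proximal 3 (2.02 CPM, and 1.53 CPM in distal 3), with TYROBP at 0 counts in 4 libraries. Smooth muscle markers were lowest in distal 3, at 227 CPM against 576 to 1012 CPM elsewhere, and ACTA2 made up most of that sum. Without ACTA2 the other 6 smooth muscle markers were highest in distal 3, at 37.1 CPM against 27.6 to 33.5 CPM elsewhere. Schwann cell markers were highest in proximal 3 (158 CPM) and distal 2 (124 CPM), and had 75.7 CPM in distal 3. The part of these cell types in the MEF2C level was not tested. Low marker counts on human genes do not show that host cells of these types were few.

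The tested genes most like each factor were found by the root mean square difference of log2 CPM, each gene centred on its own mean over the 6 libraries, among 10733 genes whose mean reached 5 CPM. MEF2C was closest to TUBA4A (an alpha-tubulin, difference 0.23), TPM1 (alpha-tropomyosin, 0.42) and DMD (dystrophin, 0.45). TUBA4A reached 11.6 CPM in library proximal 3 and 44.3 CPM in distal 3, against 1.04 to 2.18 CPM in the other libraries. MEF2D was closest to CLCN7, EP400 and SHARPIN (0.014 to 0.026), and MEF2A to SUFU, PPP1R9B and PHF23 (0.021 to 0.022). PAX3 was closest to SNU13, PALM2AKAP2 and TIMELESS (0.038 to 0.044), and SIX4 to WDYHV1, VOPP1 and ECE1 (0.046 to 0.051). For these 4 even factors a small difference mostly means that the other gene was also even.

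Reads of the factors could in principle be shared with other genes. No stretch of 50 bases in a GENCODE 29 transcript of any of the 9 factors occurred in a transcript of another of them. Such stretches were shared with any other gene for 2.54% of SIX4, 0.326% of MEF2C and 0.264% of MEF2A, and for 0% of the others. Only human transcripts were searched, so sharing with transcripts of the host was not tested. Whether counting used strand is not stated in the labels. The span of MEF2A overlaps that of LYSMD4 (240 to 313 counts) and the span of PAX3 that of CCDC140 (8 to 29 counts), so some reads of these pairs could not be told apart if strand was not used. The span of MEF2C also overlaps the antisense genes MEF2C-AS1 and MEF2C-AS2, that of MYOG overlaps MYOPARR and that of PAX3 a further long non-coding RNA. These have no row in the count table used here, and without strand their reads could be part of the counts of MEF2C, MYOG and PAX3.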

How the data were processed

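Per the labels' protocols, poly(A) RNA of 6 tumour samples was sequenced. What the authors deposited are unnormalized read counts for each gene symbol. The submitters' processing notes name GRCh38 as the build, and list STAR 2.7.3a, featureCounts 2.0.1, Trimmomatic 0.39, DESeq2 and bcl2fastq. Annotation, strand use and any removal of host reads were not given in the sources used here, so host reads that align to human genes could be part of a count.

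Counts were analysed in R 4.3.3 with edgeR 4.0.16: expression filter with the group as factor, TMM scaling, and the robust quasi-likelihood test of distal against proximal over all 13382 genes kept, with Benjamini-Hochberg adjustment at 0.05 and no covariate. The SE is the size of the log2 fold change divided by the root of F. Alternatives used DESeq2 1.42.0 and limma 3.58.1 (voom), other scalings and filters, a block on the replicate number and fits without single libraries. On counts simulated for distal against proximal (13382 genes, 200 altered), the test recovered 38.8%, 66.7% and 90.9% of genes altered 1.5-fold, 2-fold and 4-fold, and called 26 of 13085 unaltered genes, which is more false calls than the threshold nominally allows.

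The factors and lists were chosen with earlier results of these data known. Named are all 9 factors, from each list the genes that passed or the 2 with the lowest p, a set of fixed muscle genes, and the 3 genes most like each tested factor. YAP1, POU2F3, NEUROD1, MYH7, KDR, PECAM1, TYROBP, ACTA2, PDGFRA, COL1A1, ENO3, NEB, COX6A2 and TWIST1 were named after their values were seen. PAX7 and MYMK, among the fixed names, are not analysed here, and some genes of the lists are not reported by name. Positions and promoters came from RefSeq (GRCh38.p14), exon lengths and transcripts from GENCODE 29. Figures were drawn with matplotlib 3.10.9.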

Additional observations from a re-analysis of the deposited data

How the results depend on the processing

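No alternative called any of the 5 tested factors. The count over all genes was 0 with all libraries and 1 (EDIL3) with DESeq2, and 0 to 1 with a library left out, the 1 being EDIL3 without distal 1. Scaling by RLE or library totals and both other filters kept the direction of all 5 factors. DESeq2, limma-voom and the replicate block kept them as well. With the replicate number as a block 0 genes were called and MEF2C was at 1.03. Same-numbered samples deviated together with correlations of 0.36, -0.11 and 0.18. For numbers 1 and 3 these were the highest correlations of both samples, while proximal 2 correlated best with distal 3 (0.11). These values do not settle whether the numbers pair the samples. By limma-voom MEF2C was at 0.57, and DESeq2 gave it 2.10 and no p.

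Signs changed only where libraries were left out, and the cause was not tested. With a library left out, the log2 fold change of MEF2A ran from -0.096 to 0.035 (0.035 without distal 1), that of MEF2D from -0.19 to 0.013 (0.013 without proximal 3), that of SIX4 from -0.052 to 0.197 (-0.052 without distal 3) and that of PAX3 from -0.077 to 0.14. The sign of PAX3 changed without proximal 1 (-0.077), proximal 3 (-0.042), distal 1 (-0.010) and distal 2 (-0.015). That of MEF2C ran from -1.29 (without distal 3) to 3.49. Without both proximal 3 and distal 3, PAX3 was at -0.0090, SIX4 at -0.047 and MEF2C at 0.11. With no low-count filter the adjusted p of MYOD1, MYF5, MYOG and MYF6 was 0.999 each (edgeR), and the unadjusted p of MYOG was 0.0787. MYOD1 and MYF5 had at most 2 counts in any library, too few to compare, and whether depth or absence of expression set this was not tested. MYF6 missed the low-count filter with 224 counts in distal 3, since few of its reads were in other libraries.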
